A study of Homo sapiens with 24 samples.

Results

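FOXP1 was silenced in DB, a human diffuse large B-cell lymphoma (DLBCL) line of the germinal center B-cell-like subtype (GCB-DLBCL), and the RNA of the silenced cells was compared with that of control cells. The members are the 6 DB arrays among the 24 arrays of the series, chosen by the cell line named in their labels. Cells were nucleofected with 1 µM of a FOXP1-targeting Stealth siRNA, either siFOXP1 #1 (HSS178308) or siFOXP1 #2 (HSS178309), or with the Low GC negative control duplex (siCtrl), and total RNA was taken 48 h later. Each siRNA has 3 arrays, labelled as biological replicates 1 to 3, and each array carries siFOXP1 RNA in the Cy3 channel and siCtrl RNA in the Cy5 channel. Since the dyes were never swapped, dye bias and FOXP1 silencing cannot be told apart on any single gene. DB is 1 line, and the silencing is transient.

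FOXP1 is a forkhead transcription factor that binds DNA through a winged-helix domain and acts mostly as a repressor, with roles in early B-cell development, and its expression is lowered in the normal germinal center. In DLBCL it is known above all for its high expression in the activated B-cell-like subtype (ABC-DLBCL). Short isoforms made from internal promoters are common there, whereas GCB-DLBCL lines that express FOXP1 mainly make the full-length protein.

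The values are log2 ratios of siFOXP1 over siCtrl signal, so a positive value is a gene that was higher after silencing, and a value of 1 is a 2-fold difference. A gene was called when limma gave a Benjamini-Hochberg adjusted p under 0.05 over 30142 genes and the mean of both siRNAs lay at least 0.5 from 0 on the log2 scale. The brightest of a gene's probes stood for the gene. Of these genes, 14925 were well above background in both channels on all 6 arrays, 1078 reached this in at least 1 channel of every array, and 14139 were dim. A dim gene's ratio is a ratio of near-background signals, so the account below rests on the 14925 genes measured on both sides unless it says otherwise.

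DB cells carried the B-cell markers of a GCB line. All 7 B-cell markers (MS4A1, CD79A, CD79B, PAX5, CD22 and BLK among them) were well above background on the 6 siCtrl channels, as were 6 of 7 germinal center markers. Of 4 plasma-cell markers SDC1 and XBP1 were above background on all 6, and IRF4, which also marks ABC-DLBCL, on none. The summed processed intensity of the 7 B-cell markers was 46333 to 69631 in siCtrl and 43595 to 77857 in siFOXP1 channels, against 45.3 to 90.8 and 39.9 to 92.1 for 7 T-cell markers, none of which was well above background on all 6. One of 7 myeloid markers, 2 of 4 epithelial, 2 of 4 fibroblast and 1 of 4 endothelial markers were above background on all 6 siCtrl channels, and none of these lists had a call but the myeloid one, where the dim gene LYZ was called higher.

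The array of siFOXP1 #1, replicate 3, was the most spread of the set. The SD of the log2 ratio over all genes was 0.572 there and 0.392 to 0.444 on the other 5 arrays. Replicates 1 and 2 were on one slide and replicate 3 on another, so the values without replicate 3 are also those within the first slide.

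FOXP1 itself was lower on every array. Its log2 ratio was -0.95, -1.61 and -1.34 on replicates 1 to 3 of siFOXP1 #1, and -2.71, -2.69 and -2.69 on those of siFOXP1 #2. The arrays of the 2 siRNAs did not overlap, and those of siFOXP1 #2 were all the lower ones. The mean was -2.00 ± 0.79 (SD, n = 6; limma adjusted p = 3.12e-11). The siRNAs differed by -1.40 (SE 0.15; limma adjusted p = 0.000316), so siFOXP1 #2 left less FOXP1 RNA than siFOXP1 #1. The probe lies on chromosome 3 at 71091098 to 71091157 (hg18, minus strand), and a second FOXP1 probe at 71088711 to 71088770 gave -2.03 ± 0.60 (SD, n = 6), with -1.53 for siFOXP1 #1 and -2.54 for siFOXP1 #2. The probe that stands for FOXP1 is shown because the check of silencing rests on it, with no base set apart in capitals. It holds no stop codon in its second reading frame.
FOXP1 probe: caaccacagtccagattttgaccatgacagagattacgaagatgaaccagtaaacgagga

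The other forkhead P genes did not accompany it. FOXP4, the only paralog measured, was at 0.06 (limma adjusted p = 0.75), and FOXP2 and FOXP3 were dim.

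More genes rose than fell after FOXP1 silencing, and most changes were small. Among the 14925 genes measured in both channels, 127 were called higher (0.851%) and 75 lower (0.503%), but 11 of the former and 2 of the latter reached 2-fold. The rises ran from 0.50 to 2.18 with a median of 0.60, and the falls from -2.00 to -0.50 with a median of -0.57. Of the 127 rises, 97 had one sign on all 6 arrays, as did 50 of the 75 falls. When the replicate number was fitted as a block, 118 measured genes were called higher and 63 lower. Rising genes were dimmer than the measured genes as a whole, with a median siCtrl signal of 7.92 on the log2 scale against 9.69, and falling genes lay at 8.22. Leaving out replicate 3 ended the excess of rises, with 240 genes higher and 249 lower, and without the array of siFOXP1 #1, replicate 3, alone there were 173 higher and 160 lower. The direction of the balance also depends on the scaling. After normexp background correction with median centring in place of the deposited loess normalization, 11 genes were called higher and 37 lower, and the cause was not tested.

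**Figure D1:**
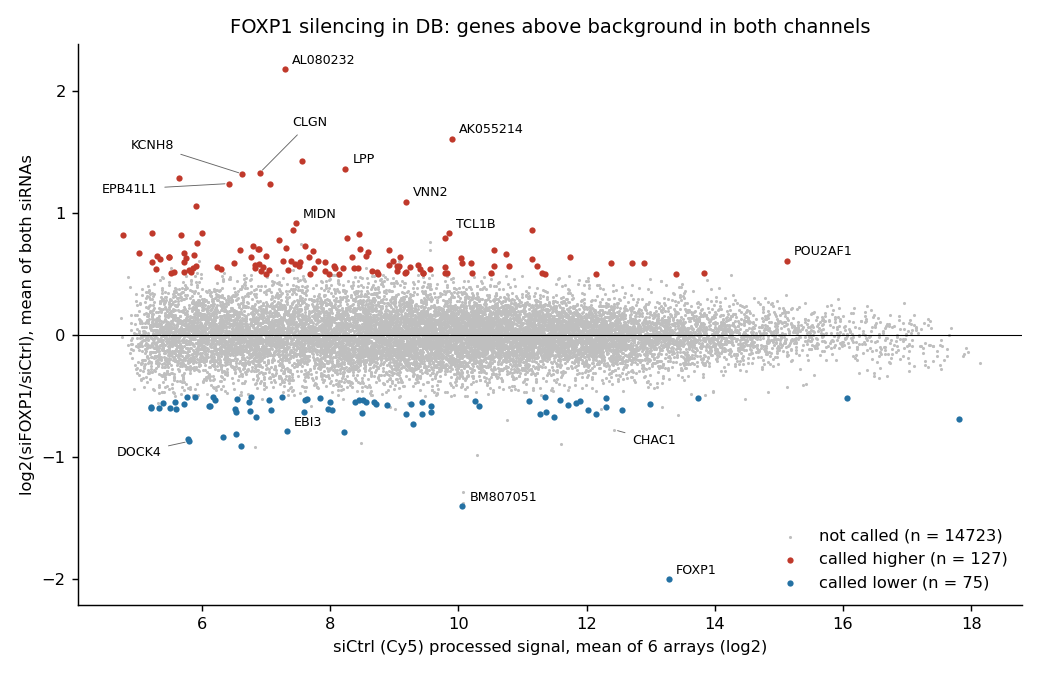
Mean log2(siFOXP1/siCtrl) over both siRNAs in DB (y axis) against the mean log2 processed siCtrl signal (x axis), 1 point for each of the 14925 genes measured on both sides of all 6 arrays. Called genes are colored, 127 higher and 75 lower, FOXP1 lies at the foot of the plot at -2.00, and the clones around LPP (AL080232, AK055214) lie at the top.

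The dim genes and those with signal on fewer sides gave more calls than the measured ones. Over all 30142 genes, 402 were called higher (1.33%) and 250 lower (0.829%), and 223 and 165 of these were dim (1.58% and 1.17% of dim genes). Among the 1078 genes with at least 1 channel above background on every array, 52 were called higher (4.82%) and 10 lower (0.928%). Their percentages of higher calls exceeded that of the genes measured on both sides, where a ratio has a true value in each channel.

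The clearest rise lay at the LPP locus. LPP, a LIM-domain protein of focal adhesions, was at 0.73, 1.12 and 1.42 with siFOXP1 #1 and at 1.34, 1.87 and 1.71 with siFOXP1 #2. All 6 arrays were positive and the 2 siRNAs overlapped. The mean was 1.37 ± 0.41 (SD, n = 6; limma adjusted p = 9.08e-08). Its probe is on chromosome 3 at 190074950 to 190075009 (hg18), and a second LPP probe, starting at 190078436, gave 1.55 ± 0.37.

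The transcripts that the array design holds around LPP rose with it. AL080232, whose probe starts at 189447610 on the same chromosome, had the greatest rise of any gene measured in both channels, at 2.03, 1.40 and 2.36 with siFOXP1 #1 and 2.76, 2.41 and 2.13 with siFOXP1 #2, a mean of 2.18 ± 0.46 (SD, n = 6; limma adjusted p = 5.87e-06). AK055214, close to the LPP probes at 190090512, was at 0.95, 1.35 and 1.87, then at 1.58, 2.04 and 1.90, with a mean of 1.61 ± 0.41 (SD, n = 6; limma adjusted p = 4.74e-08). No array of either clone was below 0.9. The other 4 were AK123506 (1.43 ± 0.35), A_32_P179646 (1.29 ± 0.28), THC2551927 (1.24 ± 0.46) and BG502322 (1.06 ± 0.40; SD, n = 6 each), so 7 of the 11 rises of at least 2-fold came from this locus. These are clones and unnamed probes of an old design, and whether they are parts of LPP transcripts was not tested.

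The rise did not extend over every probe of the neighborhood. Between 189380998 and 190521361 the array had 19 probes, a window chosen after the values were seen, and 11 of them were well above background in both channels on all 6 arrays. Of these 11, 9 were positive on every array with a mean over 0.5. The other 2, THC2491622 at 0.08 ± 0.37 and A_24_P50294 at -0.15 ± 0.22, lay at either end of the cluster. BU726029 at 1.52 ± 0.58 and THC2535753 at 1.59 ± 0.80 had siFOXP1 signal on 6 arrays and siCtrl signal on 2, so their ratios have no firm denominator.

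**Figure D2:**
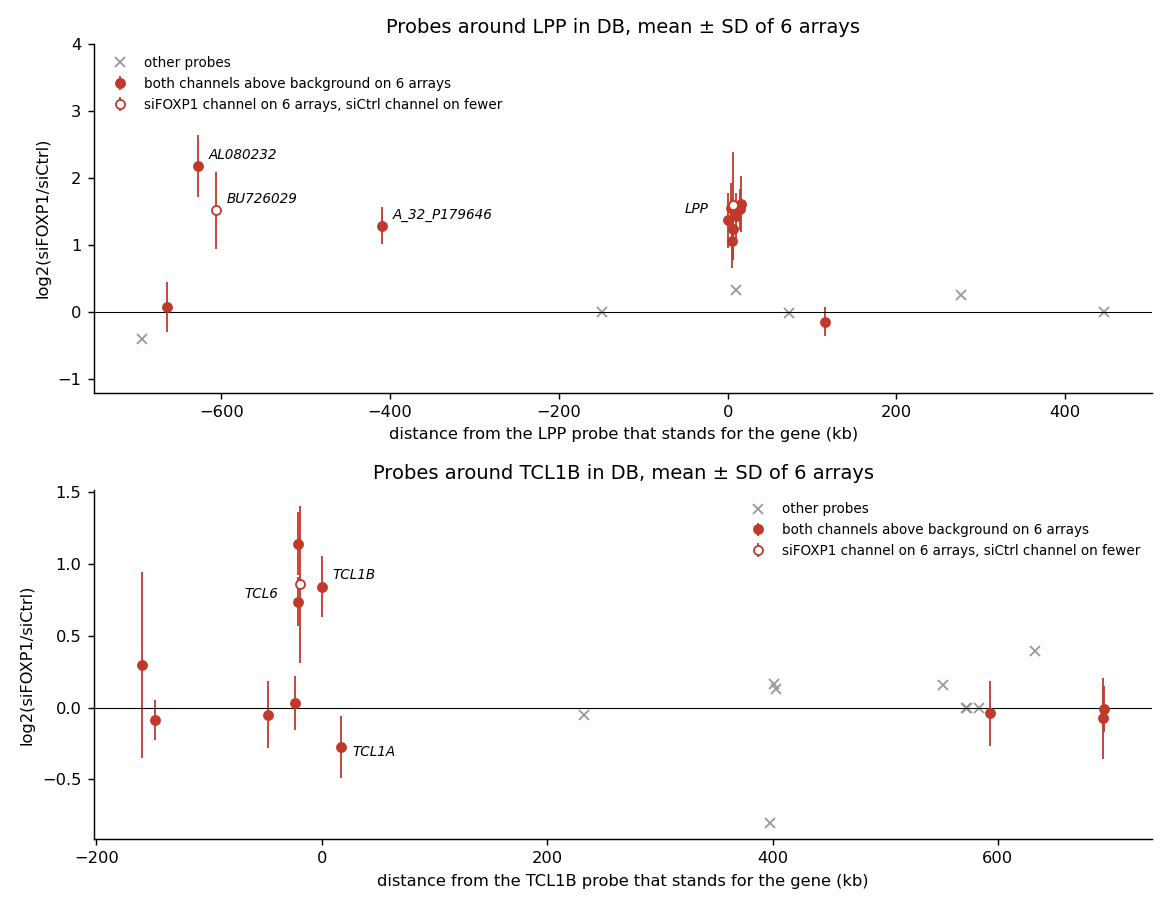
Mean log2(siFOXP1/siCtrl) ± SD over the 6 DB arrays (y axis) of each probe around LPP (upper panel) and TCL1B (lower panel), by distance in kb from the probe that stands for that gene (x axis). Around LPP 9 of the 11 measured probes lie above 1, while around TCL1B TCL1B (0.84) and 3 of the TCL6 probes lie highest, another TCL6 probe lies at 0.03 and TCL1A lies at -0.27.

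A smaller cluster of the same kind lay on chromosome 14. TCL1B, of a family of AKT coactivators, was at 0.77, 0.89 and 1.23 with siFOXP1 #1 and 0.61, 0.74 and 0.81 with siFOXP1 #2, all positive and overlapping, with a mean of 0.84 ± 0.21 (SD, n = 6; limma adjusted p = 1.48e-06). The neighboring noncoding gene TCL6 was at 0.74 ± 0.17 (limma adjusted p = 3.47e-07) by its brightest probe. Its other probes disagreed, from 0.03 to 1.14. TCL1A, the family's proto-oncogene in the same window, did not rise, with a mean of -0.27 ± 0.22 (limma adjusted p = 0.0563). The window, from 95069072 to 95923180, was also chosen after its values were seen, and 3 of its 11 measured probes were positive on all 6 arrays.

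Other strong rises were of genes without an evident common role. KCNH8, a voltage-gated potassium channel, was at 0.94, 1.21 and 1.77, then at 1.27, 1.48 and 1.28, a mean of 1.32 ± 0.28 (SD, n = 6; limma adjusted p = 2.2e-05). EPB41L1, a band 4.1-like protein that links membrane proteins to the cytoskeleton, was at 0.96, 0.68 and 1.33, then at 1.32, 1.64 and 1.54, a mean of 1.25 ± 0.36 (SD, n = 6; limma adjusted p = 0.000139). In both genes the arrays of the 2 siRNAs overlapped. MIDN (midnolin) rose by 0.92 ± 0.34 (limma adjusted p = 1.14e-05).

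VNN2, a pantetheinase on the cell surface, was at 0.73, 0.93 and 1.91 with siFOXP1 #1 and 0.70, 1.15 and 1.16 with siFOXP1 #2, a mean of 1.10 ± 0.45 (SD, n = 6; limma adjusted p = 4.49e-06). The wide array of siFOXP1 #1, replicate 3, was its highest. NEIL1, a glycosylase that starts base excision repair, leaned on that array more, at 0.47, 0.57 and 2.05, then at 0.30, 0.61 and 0.81. Its mean of 0.80 ± 0.63 (SD, n = 6; limma adjusted p = 0.00749) became 0.49 (limma adjusted p = 0.0713) without replicate 3, and siFOXP1 #2 alone gave 0.57 (limma adjusted p = 0.283). CLGN, a testis chaperone of the endoplasmic reticulum, rested on replicate 3 of both siRNAs, with 4.35 and 1.78 there against 0.02 to 0.78 on the other 4 arrays. Its mean of 1.33 ± 1.59 (limma adjusted p = 0.018) was 0.47 (limma adjusted p = 0.103) without that replicate, and 1.09 (limma adjusted p = 0.0849) without the siFOXP1 #2 array of replicate 3.

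Moderate rises included regulators of transcription and growth. POU2AF1, the B-cell coactivator of OCT factors, had the smallest spread of those named here, at 0.44, 0.70 and 0.58, then at 0.60, 0.80 and 0.55, a mean of 0.61 ± 0.13 (SD, n = 6; limma adjusted p = 3.22e-08). FOXO4, a forkhead factor restrained by AKT, rose by 0.84 ± 0.44 (limma adjusted p = 0.000673), more with siFOXP1 #1 (1.02, 1.03 and 1.39) than with siFOXP1 #2 (0.50, 0.16 and 0.94), a difference that was not called. The mean over all FOXO4 probes, 0.44, includes dim ones. AKT1 rose by 0.61 ± 0.29 (limma adjusted p = 4.13e-05), with 0.08 on the wide array and 0.56 to 0.89 on the rest. BTG2, an antiproliferative p53 target, rose by 0.65 ± 0.31 (limma adjusted p = 3.2e-05) and was positive on all 6 arrays. ZPBP2 rose by 0.84 ± 0.37 (limma adjusted p = 0.00445), but stood at 0.65 (limma adjusted p = 0.0791) without replicate 2. P704P, of the POTE family, whose copies are near-identical so that its probe may read several, was at 0.83 ± 0.26 (limma adjusted p = 0.0154), at 0.72 (limma adjusted p = 0.0501) without siFOXP1 #1 replicate 3 and at 0.80 (limma adjusted p = 0.0517) without siFOXP1 #2 replicate 2. The transcript ENST00000390550 rose by 0.86 ± 0.54 (limma adjusted p = 0.000205).

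The falls other than FOXP1 included adhesion and cytokine genes. EBI3, a subunit of interleukins 27 and 35, was at -1.10, -1.28 and -0.98 with siFOXP1 #1 and -0.58, -0.57 and -0.19 with siFOXP1 #2. By this brightest probe the mean was -0.78 ± 0.40 (SD, n = 6; limma adjusted p = 8.33e-05). A second EBI3 probe, well above background in both channels on all 6 arrays, gave only -0.24 ± 0.26. It was slightly positive on replicate 1 of both siRNAs (0.001 and 0.035). ITGA4, the alpha-4 integrin that holds lymphocytes to VCAM1, was at -0.80, -0.78 and -1.01, then at -0.36, -0.40 and -0.47, a mean of -0.64 ± 0.26 (SD, n = 6; limma adjusted p = 0.00226). CD44, the hyaluronan receptor, was at -0.77, -1.13 and -0.89, then at -0.53, -0.34 and -0.01, a mean of -0.61 ± 0.41 (SD, n = 6; limma adjusted p = 0.0053). In each of these 3 genes, by the probe that stands for it, every siFOXP1 #1 array lay below every siFOXP1 #2 array, although siFOXP1 #2 silenced FOXP1 more. None of the 3 differences between the siRNAs was called, and without replicate 2 CD44 stood at -0.55 (limma adjusted p = 0.0599).

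Other genes that fell had varied roles. NEK7, a mitotic kinase, fell by 0.64 on the log2 scale (SD 0.29; limma adjusted p = 7.98e-05). POLK, a translesion polymerase, was at -0.64 ± 0.30 (limma adjusted p = 2.26e-05), and a second measured POLK probe gave -0.43 ± 0.23. The mean over all POLK probes, -0.36, includes a dim one. AP1S2, a subunit of a clathrin adaptor, was at -0.64 ± 0.23 (limma adjusted p = 1.16e-05). SCARNA17, a guide RNA of Cajal bodies, was at -0.64 ± 0.19 (limma adjusted p = 6.46e-06), and its 6 arrays lay between -0.98 and -0.50. DOCK4, which activates RAC, was at -0.87 ± 0.49 (limma adjusted p = 0.0173) by its brightest probe and at -0.30 ± 0.28 by a second measured one. The mean over all DOCK4 probes, -0.23, includes dim ones. DOCK4 lost its call at -0.76 (limma adjusted p = 0.0543) without siFOXP1 #1 replicate 3 and at -0.83 (limma adjusted p = 0.0554) without siFOXP1 #2 replicate 3. The unnamed transcripts AK091569 (-0.91 ± 0.24) and THC2732966 (-0.85 ± 0.22) were the steadiest of the larger falls, with every array of both at or below -0.50 (limma adjusted p = 1.79e-05 and 0.000813).

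BM807051 shows how far 1 replicate can carry a mean. It was at -4.00 and -2.16 on the replicate 2 arrays and between -0.95 and -0.19 on the others, a mean of -1.40 ± 1.45 (SD, n = 6; limma adjusted p = 0.0154). Without replicate 2 it stood at -0.56 (limma adjusted p = 0.225), without the siFOXP1 #1 array of it at -0.86 (limma adjusted p = 0.0688) and without the siFOXP1 #2 array at -1.09 (limma adjusted p = 0.0824). FLJ35767 at -0.72 ± 0.66 (limma adjusted p = 0.00598) had its lowest values, -1.81 and -1.17, on the same arrays, and was at -0.46 without siFOXP1 #1 replicate 2.

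**Figure D3:**
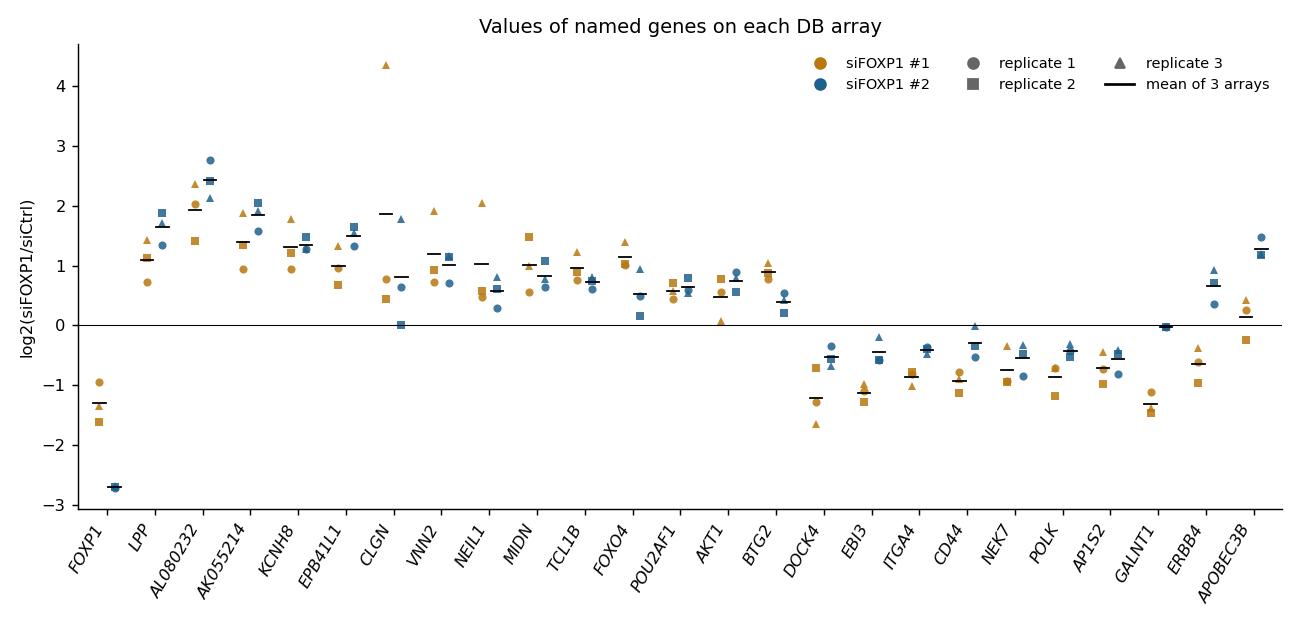
log2(siFOXP1/siCtrl) of 25 named genes on each of the 6 DB arrays (y axis), colored by siRNA and shaped by replicate, with the mean of 3 arrays of each siRNA as a bar. FOXP1 separates the siRNAs, the genes around LPP are positive on all 6 arrays, and CLGN and NEIL1 are drawn upward by replicate 3 of siFOXP1 #1.

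A few genes had signal on 1 side only. For these the fold is a bound against the faintest signal that passed the background test in the dim channel, after Aquantile scaling, and is open to dye bias. C12orf42 was at least 3.19-fold lower (limma adjusted p = 1.88e-12) and RNF175 at least 2.54-fold lower (limma adjusted p = 7.26e-09), the only 2 such falls. Of 11 such rises, the 3 with the greatest fitted ratios, an order that the bounds do not keep, were C1QTNF5, at least 1.93-fold higher (limma adjusted p = 5.07e-05), UBE2E1, at least 1.19-fold higher (limma adjusted p = 0.0123, and 0.0721 and 0.0632 without replicates 2 and 3), and CXADRP3, at least 1.48-fold higher (limma adjusted p = 0.00473). All 5 had one sign on the 6 arrays. Each adjusted p belongs to the fitted ratio, whose dim channel lies below the background test, and not to the bound. Over the alternative ways of processing, the log2 values nearest 0 were -0.48 for C12orf42, -0.35 for RNF175, 0.30 for C1QTNF5, 0.16 for UBE2E1 and 0.09 for CXADRP3. These lie nearer 0 than the bounds, so the bounds hold for this scaling only.

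The siRNAs were set against each other by testing their difference, because same-numbered arrays may share their siCtrl RNA. By siFOXP1 #1 alone 252 of the 14925 measured genes were called higher (1.69%) and 190 lower (1.27%), and by siFOXP1 #2 alone 105 higher (0.704%) and 73 lower (0.489%). Among the 127 genes called higher on the mean, the median was 0.67 with siFOXP1 #1, 0.64 without its replicate 3, and 0.55 with siFOXP1 #2. Among the 75 called lower, these medians were -0.70, -0.73 and -0.53. So siFOXP1 #1 had the larger medians in both directions while it lowered FOXP1 less, but these are descriptions of genes chosen on the mean of both. Of the 127, 86 were also called by siFOXP1 #1 alone, 65 by siFOXP1 #2 alone and 43 by each. Of the 75, the numbers were 52, 24 and 14.

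The difference itself was called for 24 measured genes that were higher with siFOXP1 #2 (0.161%) and 33 that were higher with siFOXP1 #1 (0.221%). With same-numbered arrays paired and limma fitted to their differences, the calls over all genes, measured or not, went from 91 to 273. Of the 127 rises, 2 were among the calls without the pairing, APOBEC3B and PRRT3, the latter at 0.87 with siFOXP1 #1 and 0.19 with siFOXP1 #2 (limma adjusted p = 0.0281). Of the 75 falls, 5 were, FOXP1 among them. GALNT1, which starts O-linked glycosylation, was at -1.10, -1.46 and -1.37 with siFOXP1 #1 and at -0.03, -0.02 and -0.03 with siFOXP1 #2, a difference of 1.29 (SE 0.10; limma adjusted p = 4.48e-06). CHCHD3, a protein of the mitochondrial inner membrane, was the reverse case at -0.13 and -1.10 (means of 3 arrays), as was S48723 at -0.15 and -0.97 (limma adjusted p = 0.0117 for the difference). CASC4 was at -0.85 and -0.22 (limma adjusted p = 0.00785).

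Genes outside both sets of calls moved in opposite directions. ERBB4, a receptor tyrosine kinase, was at -0.60, -0.97 and -0.37 with siFOXP1 #1 and 0.36, 0.70 and 0.93 with siFOXP1 #2, a difference of 1.31 (limma adjusted p = 0.0239). It was not called without siFOXP1 #1 replicate 2 (1.16, limma adjusted p = 0.068), siFOXP1 #2 replicate 2 (1.30, limma adjusted p = 0.0619) or siFOXP1 #2 replicate 3 (1.18, limma adjusted p = 0.0938). ZNF629, a zinc-finger gene, was at 0.38, 0.42 and 1.00, then at -0.44, -0.44 and -0.43, a difference of -1.03 (limma adjusted p = 0.000584). In both genes all 3 arrays of one siRNA were positive and all 3 of the other negative.

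APOBEC3B, a cytidine deaminase, was at 0.25, -0.25 and 0.42 with siFOXP1 #1 and at 1.48, 1.18 and 1.19 with siFOXP1 #2, so its rise came from the second siRNA. The difference of 1.14 (limma adjusted p = 0.041) was not called with same-numbered arrays paired (limma adjusted p = 0.0604), nor without siFOXP1 #1 replicate 2 (0.94, limma adjusted p = 0.104), siFOXP1 #2 replicate 1 (1.04, limma adjusted p = 0.142), replicate 2 (1.19, limma adjusted p = 0.0668) or replicate 3 (1.19, limma adjusted p = 0.0844). GLIPR2 was at -0.15, 0.33 and 1.09, then at -0.82, -0.81 and -0.37, a difference of -1.09 (limma adjusted p = 0.0253), which was not called without siFOXP1 #2 replicate 1 (-1.01, limma adjusted p = 0.0959) or replicate 2 (-1.02, limma adjusted p = 0.0775).

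Gene lists of B-cell and lymphoma biology were mostly still. Over the 16003 genes with signal on at least 1 side of every array, 179 were called higher, 85 lower and the median was 0.01. Of 24 B-cell identity genes POU2AF1 alone was called (median 0.06), and of 31 genes of B-cell receptor signaling AKT1 alone. MS4A1 was at 0.16 ± 0.34 and was not called. Of 28 germinal center and GCB-DLBCL genes LPP, NEIL1 and VNN2 were called higher and none lower (median 0.04). The study picked these 3 genes on the same arrays, so their count is not independent evidence about the list. S1PR2 (0.45 ± 0.21), BCL7A (0.38 ± 0.27) and MYBL1 (0.37 ± 0.13) passed the adjusted p of limma but lay under the fold limit.

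MHC class II genes had no common direction. Of 17 measured, only RFXAP, a subunit of the factor that opens their promoters, was called, at -0.31, -0.83 and -0.35 with siFOXP1 #1 and -0.60, -0.75 and -0.45 with siFOXP1 #2, a mean of -0.55 ± 0.22 (SD, n = 6; limma adjusted p = 7.98e-05). All its arrays were negative, and without siFOXP1 #1 replicate 2 its mean was -0.46, under the fold limit. CD74, the invariant chain, was positive on all 6 arrays at 0.29 ± 0.10 (limma adjusted p = 0.025), under the fold limit. HLA-DPB1 was at -0.35 ± 0.42 and HLA-DRA at -0.17 ± 0.42, and the median of the list was -0.06.

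Of 30 migration and trafficking genes, ITGA4, CD44, ITGB2 and CCL3 were called lower and none higher, against 85 lower of 16003 in all. The median of the list was -0.01, and at an unadjusted limma p under 0.05 it had 7 genes higher and 8 lower. ITGB2, the integrin chain of leukocytes, was at -0.55 ± 0.47 (limma adjusted p = 0.00189), negative on 5 arrays and positive on the wide one, and under the fold limit without siFOXP1 #1 replicate 1 (-0.47), siFOXP1 #1 replicate 2 (-0.45) or siFOXP1 #2 replicate 1 (-0.47). The chemokine CCL3 was at -0.53 ± 0.55 (limma adjusted p = 0.0211) and lost its call at -0.38 (limma adjusted p = 0.11) without siFOXP1 #1 replicate 2 and at -0.34 (limma adjusted p = 0.111) without siFOXP1 #2 replicate 2. S1PR2 and ARHGEF1, which confine B cells to the germinal center, were positive on all 6 arrays, at 0.45 ± 0.21 and 0.45 ± 0.15, under the fold limit.

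Of 19 actin, adhesion and LIM genes, LPP and FLNA were called higher and NEXN lower. Filamin A (FLNA), an actin crosslinker, was at 0.57 ± 0.46 (limma adjusted p = 0.00149), with -0.27 on the wide array and 0.61 to 1.14 elsewhere, and at 0.48 without siFOXP1 #1 replicate 2 or siFOXP1 #2 replicate 1. Nexilin (NEXN), an actin-binding protein, was at -1.89 ± 1.28 (limma adjusted p = 0.013) but was above background on the siFOXP1 side on 3 arrays. Its call was lost without siFOXP1 #1 replicate 2 (-1.44, limma adjusted p = 0.0708) and without siFOXP1 #2 replicate 2 (-1.53, limma adjusted p = 0.0699).

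The BCL2 family had no call among 18 measured members, but several passed the adjusted p with small rises. The members ran from -0.71 to 0.47, so the value furthest from 0 was a fall, which was not called either. At an unadjusted limma p under 0.05 the family had 7 genes higher and 2 lower, where all 16003 genes had 2892 and 2840. The methods' t-test after adjustment, which pools the arrays of both siRNAs, called none, but it did not call FOXP1 either. BCL2L11, the proapoptotic BIM, was at 0.37, 0.34 and 0.55, then at 0.31, 0.55 and 0.39, a mean of 0.42 ± 0.10. BAX was at 0.47 ± 0.15, BAK1 at 0.20 ± 0.04 and MCL1 at 0.26 ± 0.13, each positive on all 6 arrays. BCL2 itself was at -0.15 ± 0.15 (limma adjusted p = 0.048).

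Replication-dependent histones, which package new DNA in S phase, lay mostly below 0. Of 58 histone genes 5 were called lower and none higher, and the median was -0.34 against 0.01 for all genes. HIST1H4C was at -0.69 ± 0.46 (limma adjusted p = 0.00192), at -0.39 without replicate 2, and HIST1H1D (-0.51), HIST1H2BC (-0.50), HIST1H4D (-0.53) and HIST1H4L (-0.51) were near the limit. The median of the list was -0.13 in replicate 1, -0.62 in replicate 2 and -0.21 in replicate 3, and -0.16 without replicate 2, when none was called. Without replicate 1, 19 were called lower. The 4 near the limit fell under it, or lost their adjusted p, when 1 array was left out. That was so for HIST1H1D without siFOXP1 #1 replicate 3 (-0.37), siFOXP1 #2 replicate 2 (-0.48) or replicate 3 (-0.42, limma adjusted p = 0.0605), and for the other 3 without replicate 2 of siFOXP1 #1 (-0.39, -0.38 and -0.34) or of siFOXP1 #2 (-0.45, -0.43 and -0.39). Histone genes are near-copies of each other, so their probes may share signal.

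The integrated stress response, the program that ATF4 drives when translation is restrained, gave no call among 26 genes, with a median of -0.29. At an unadjusted limma p under 0.05 it had 0 genes higher and 7 lower (2892 and 2840 of all 16003), and with normexp and loess 2 were called lower, while the methods' t-test called none. Its median was 0.01 in replicate 1, -1.31 in replicate 2 and 0.32 in replicate 3. ATF3 was at -0.48, -5.43 and 1.29 with siFOXP1 #1 and at -0.63, -3.13 and 0.16 with siFOXP1 #2, a mean of -1.37 ± 2.46 (SD, n = 6; limma adjusted p = 0.142). CHAC1, which degrades glutathione, was at 0.17, -3.63 and 0.55, then at 0.10, -1.87 and 0.04, a mean of -0.77 ± 1.64 (limma adjusted p = 0.237). In both genes the replicate 2 arrays were the lowest by far, and without that replicate CHAC1 stood at 0.22 (limma adjusted p = 0.615). DDIT3 had the same form, at -3.08 and -2.14 in replicate 2 and -0.45 to 0.63 elsewhere.

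**Figure D4:**
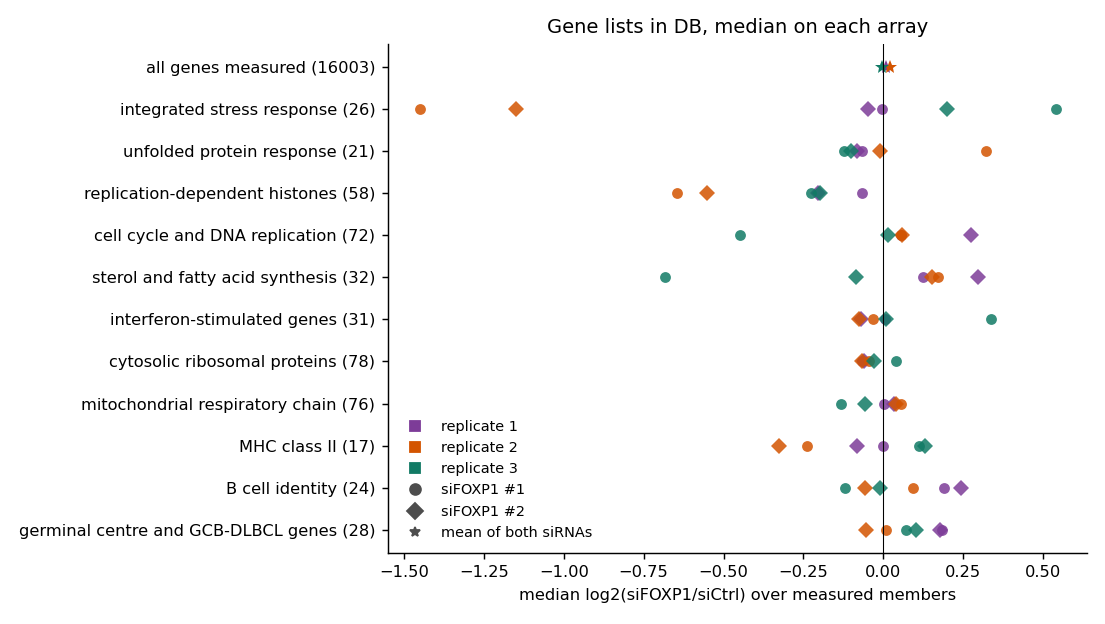
Median log2(siFOXP1/siCtrl) over the measured members (number in parentheses) of 11 gene lists on each DB array (x axis), colored by replicate and shaped by siRNA, with the medians of all 16003 measured genes as stars. The stress and histone lists sit lowest in replicate 2, at -1.31 and -0.62 over both siRNAs. The other lists stay nearer 0 with single arrays apart, the furthest being sterol and fatty acid synthesis at -0.68 on siFOXP1 #1, replicate 3.

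Cell-cycle genes gave 1 call among 72 measured (median -0.01). CDKN1B, the inhibitor p27, was at -0.56 ± 0.72 (limma adjusted p = 0.0386) by its brightest probe and at -0.19 ± 0.52 by a second measured one. It was not called with replicate as a block (limma adjusted p = 0.0579), and leaving out siFOXP1 #1 replicate 2 (-0.28, limma adjusted p = 0.163), siFOXP1 #2 replicate 1 (-0.58, limma adjusted p = 0.0755) or siFOXP1 #2 replicate 2 (-0.43, limma adjusted p = 0.17) ended the call as well. On the wide array the list's median was -0.45, against 0.01 to 0.27 on the other 5. Of 15 KLF and FOXO factors FOXO4 was called higher and KLF9 lower. KLF9, at -0.55 ± 0.57 (limma adjusted p = 0.0333), was as fragile, at an adjusted p of 0.0606 with the block in limma. Its call was also lost without siFOXP1 #1 replicate 2 (-0.35, limma adjusted p = 0.168), siFOXP1 #2 replicate 1 (-0.54, limma adjusted p = 0.0812) or siFOXP1 #2 replicate 2 (-0.46, limma adjusted p = 0.129).

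Smaller lists gave 1 or 2 calls each. EBI3 and CCL3 were lower among 29 NF-kB subunits and targets, IFNGR1 (-0.59 ± 0.47, limma adjusted p = 0.0026, and -0.40 without siFOXP1 #1 replicate 2) among 23 interleukins and receptors, and CD44 among 17 plasma cell and ABC-DLBCL genes. IER3 was lower among 18 immediate early genes (-0.52 ± 0.60, limma adjusted p = 0.0274), and was not called without siFOXP1 #1 replicate 2 (-0.35, limma adjusted p = 0.14) or replicate 3 (-0.51, limma adjusted p = 0.0533), nor without siFOXP1 #2 replicate 2 (-0.36, limma adjusted p = 0.145) or replicate 3 (-0.51, limma adjusted p = 0.0706). BTG2 was higher among 25 p53 targets. CBX6, a polycomb reader, was higher among 25 genes (0.58 ± 0.44, limma adjusted p = 0.000256, and 0.45 without siFOXP1 #2 replicate 2). TNRC6B, the Argonaute partner of RNA silencing, was higher among 11 genes of that machinery (0.67 ± 0.47, limma adjusted p = 0.00172). Its 3 other probes gave 0.17, 0.27 and 0.44, and without siFOXP1 #1 replicate 3 it was at 0.49. VNN2 and NEIL1 were the 2 calls of 12 vanin and base excision repair genes.

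No call was made among 22 MHC class I genes, 31 interferon-stimulated genes, 19 TNF ligands and receptors, 22 Wnt genes, 25 axon guidance genes, 78 ribosomal proteins, 76 genes of the respiratory chain, 32 of sterol and fatty acid synthesis, or 21 of the unfolded protein response. At an unadjusted limma p under 0.05 these lists had, in that order, 4, 6, 4, 5, 7, 6, 11, 6 and 2 genes higher and 5, 4, 0, 5, 1, 27, 15, 4 and 4 lower, against 2892 higher and 2840 lower of 16003 genes in all. The methods' t-test, which did not call FOXP1 either, called none after adjustment, and normexp with loess called 1 gene of the unfolded protein response. The median of the ribosomal proteins was -0.05, and -0.50 with normexp and median centring, where 3 were called lower and the median of all genes was -0.06. That of sterol and fatty acid synthesis changed sign between replicates, at 0.22, 0.16 and -0.40 in replicates 1 to 3. HIP1R, a gene that the study follows, was at 0.04 ± 0.21 (limma adjusted p = 0.876) and higher on 3 of 6 arrays. Its difference from OCI-Ly3, an ABC-DLBCL line where it stood at 0.55, was -0.52 (limma adjusted p = 0.00228).

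K422, the other GCB-DLBCL line, was set beside DB. It was treated in the same way on 6 arrays of its own, but was scanned apart from DB with a later version of the software, so the scan and the line cannot be told apart. Of the genes measured on both sides in DB, 1.35% had a higher value in DB than in K422 by the test and 0.938% a lower one. Against OCI-Ly3, the ABC-DLBCL line read with the same software version as DB, the shares were 0.355% and 0.898%. Of 14075 genes measured on both sides in DB and in K422, the response differed for 290, of which 171 were higher in DB.

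FOXP1 fell further in DB than in K422 (-2.00 against -1.34, a difference of -0.66, limma adjusted p = 0.00143), whereas LPP rose less (1.37 against 2.07, a difference of -0.70, limma adjusted p = 0.00469). AK055214 next to it followed LPP (1.61 against 2.39, limma adjusted p = 0.00484). KCNH8 and EPB41L1 were higher in DB than in either line. KCNH8 was at 0.02 in K422, where it was dim and so has no firm ratio, and at 0.07 in OCI-Ly3 (differences of 1.30 and 1.25, limma adjusted p = 0.00145 and 0.00244). EPB41L1 was at -0.46 in K422 and 0.13 in OCI-Ly3 (limma adjusted p = 0.000453 and 0.016). In HBL-1, the other ABC-DLBCL line, KCNH8 stood at 0.42 and EPB41L1 at -0.41, and the differences from DB were not tested. NEK7 fell in DB and stood at 0.06 in K422, a difference of -0.70. DOCK4 fell far more in K422, at -3.32 with one side near background (a difference of 2.45, limma adjusted p = 0.000209).

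Several strong responses of K422 had no counterpart in DB. SERPINB9, an inhibitor of granzyme B, was at -0.04 in DB and 1.69 in K422 (a difference of -1.73, limma adjusted p = 2.02e-10). SLC41A1, a magnesium transporter, was at 0.13 and 1.85 (limma adjusted p = 1.35e-06), and the death receptor TNFRSF21 at 0.13 and 1.77 (limma adjusted p = 2.24e-06). The DB value of TNFRSF21 is a mean of -0.22 with siFOXP1 #1 and 0.49 with siFOXP1 #2, and another TNFRSF21 probe gave -0.36 and 0.44. In the other direction C14orf65 was at 0.07 in DB and -1.75 in K422 (limma adjusted p = 9.56e-06), and GPSM1, a regulator of G-protein signaling, at 0.18 and -1.33 (limma adjusted p = 5.84e-05). TCL1B separated DB from OCI-Ly3, at -0.04 there (limma adjusted p = 5.94e-05), as did LPP at 0.54 (limma adjusted p = 0.00157), EBI3 at -0.03 (limma adjusted p = 0.00611), ITGA4 at 0.13 (limma adjusted p = 0.0203) and CD44 at 0.29 (limma adjusted p = 0.0115). As a whole, the 127 genes that rose in DB had a median of 0.44 in K422 and 0.39 in OCI-Ly3, and 25 and 20 of them differed from those lines. The 75 that fell had medians of -0.33 and -0.37, and 8 and 9 differed. Both sets were chosen by their DB values, which the tests of difference use again. Smaller medians in the other lines and more differences are therefore expected from the choice. Over all genes measured on both sides in DB, 1.35% were higher and 0.938% lower in DB than in K422. Against OCI-Ly3 these shares were 0.355% and 0.898%.

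**Figure D5:**
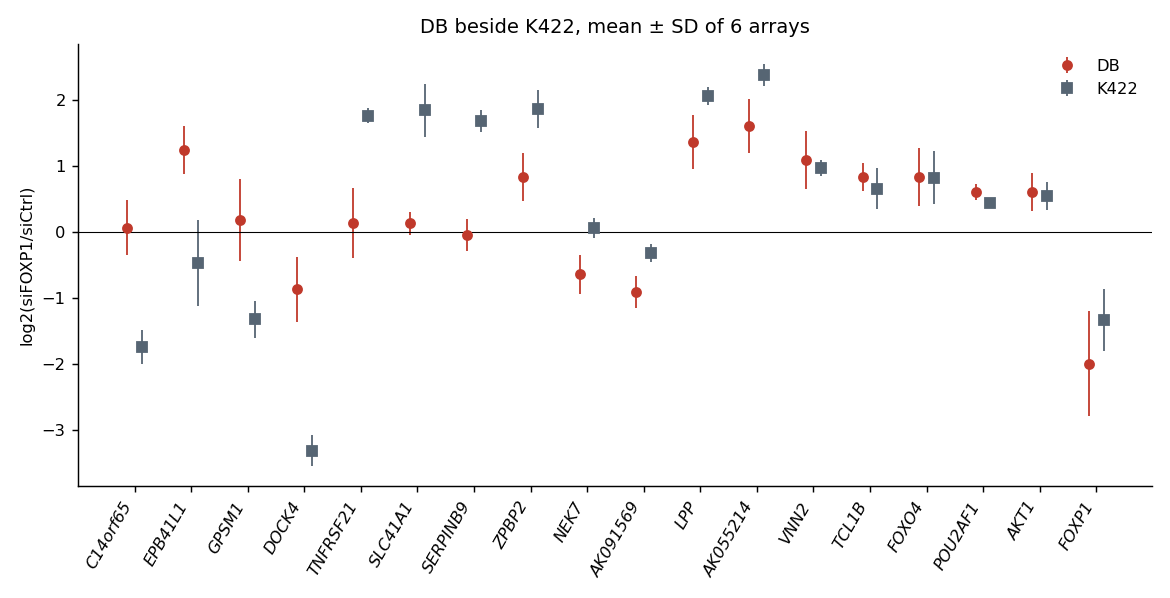
Mean log2(siFOXP1/siCtrl) ± SD over 6 arrays in DB (circles) and in K422 (squares) for 18 named genes (y axis). SERPINB9, SLC41A1 and TNFRSF21 lie near 0 in DB and between 1.69 and 1.85 in K422, EPB41L1 is up in DB and not in K422, and POU2AF1, AKT1 and VNN2 lie close together in both lines.

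Promoter windows from 250 bases before to 50 after the start (RefSeq, GRCh38.p14) were searched on both strands for the forkhead motif TGTTTAC. It was found in 7 of 132 windows (5.3%) of the 80 rising genes that matched, in 1 of 54 (1.85%) of the 39 falling genes, in 2.66% of 12686 windows of measured genes and in 3.42% of all 35116. Windows of the same gene can overlap, as those of RASSF6 do, and then count the same site again. Counted by gene, the shares were 7.5% of rising, 2.56% of falling, 3.49% of measured and 4.19% of all genes. The variants TATTTAT and TATTTGT were in 3.79% and 0% of the windows of rising genes, 3.7% and 3.7% of those of falling genes, and 2.45% and 1.92% of those of measured genes. The rising genes with TGTTTAC were LPP, FOXO4, JAML, KCNN3, RASSF6 and ST6GALNAC6, and the falling gene was FOXP1 itself. A match is a description of letters and no evidence of binding. The 250 bases before 1 of the 7 annotated starts of LPP, chr3:188212462-188212711 on the plus strand of GRCh38.p14, are shown because LPP had the clearest rise of a named gene, with TGTTTAC in capitals.
LPP upstream: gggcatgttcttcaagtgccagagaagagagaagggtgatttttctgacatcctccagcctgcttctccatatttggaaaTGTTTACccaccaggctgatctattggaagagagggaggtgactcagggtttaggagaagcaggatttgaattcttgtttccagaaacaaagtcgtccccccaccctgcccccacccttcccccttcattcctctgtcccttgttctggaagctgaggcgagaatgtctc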

How the data were processed

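RNA from siFOXP1-treated (Cy3) and siCtrl-treated (Cy5) cells was hybridized by the authors to 2-color Agilent whole-genome expression arrays. Per the file headers, Feature Extraction (10.5.1.1 for DB and OCI-Ly3, 10.7.3.1 for K422 and HBL-1) subtracted background and applied linear and loess dye normalization. The deposited scanner files hold processed intensity per channel and the log10 ratio of Cy5 over Cy3, which was turned here into log2 of siFOXP1 over siCtrl. A deposited table of log2 values, not centred on 0 (its columns ran the same way as the scanner ratios), served as an alternative, and 0 columns of other samples were present.

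Of 45015 spots, 1639 controls and the 199 to 281 outlier spots per DB array were left out, and spots of 1 probe were averaged, giving 41000 probes and 30142 genes. Of these genes 18349 matched RefSeq (16806 by accession, 1065 by symbol, 478 by synonym), and the other 11793 kept the name of the design. Between 53.7% and 55.1% of probes were well above background in both channels of a DB array. The number of arrays limits the precision.

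Means of the 8 combinations of line and siRNA were fitted over 24 arrays with limma 3.58.1 (lmFit, eBayes; R 4.3.3), and the mean of both siRNAs in DB, their difference and the differences from K422 and OCI-Ly3 were tested with Benjamini-Hochberg adjustment over all genes. Same-numbered DB arrays deviated together (r = 0.69, 0.44 and 0.73 for replicates 1 to 3 over genes measured in both channels; 0.22, 0.17 and 0.28 over all genes), in the way of paired replicates. The main fits treated the 6 arrays as independent. Replicate number was therefore also fitted as a block with duplicateCorrelation (consensus correlation 0.249 over all genes, dim ones included). For the difference between the siRNAs, same-numbered arrays were paired instead, and limma was fitted to the paired differences. On simulated data with 29553 genes for the DB mean, 92% of 100 genes changed by 0.75 and 100% of 100 changed by 1.5 were called, with 4 false calls. The simulated arrays were independent, with 1 effect per gene on all 6. They lacked the pairing of replicates, the wide array and the siRNA differences, so these rates may not hold for the real arrays. Named genes were FOXP1, the single genes that the study follows, the greatest rises and falls of one sign on all 6 arrays, bounds, the greatest differences between siRNAs and from K422, and called list members. The genes, lists and tests were chosen with earlier results of these data known. Alternatives were other background corrections and normalizations, the deposited log2 table, signal filters, probe averaging, blocks, DB arrays alone, the methods' t-test, each siRNA alone, a 2-fold limit, and each array and replicate left out.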

Additional observations from a re-analysis of the deposited data

Results flagged for a closer look

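In 8 of 101 sets of 6 DB array values that were checked, 1 array stood apart from the other 5 by more than the spread among them (Dixon's ratio), where chance gives about 1 in 20, or 5.05 sets. Of the 8, 6 were on siFOXP1 #1, replicate 3. NEIL1 was at 2.05 there against 0.30 to 0.81, and VNN2 at 1.91 against 0.70 to 1.16. The SD over all genes was 0.572 on that array against 0.392 to 0.444. The list medians were -0.45 for cell cycle and DNA replication (others 0.01 to 0.27), 0.040 for cytosolic ribosomal proteins (others -0.07 to -0.03) and 0.34 for interferon-stimulated genes (others -0.08 to 0.01). On siFOXP1 #1, replicate 2, the median was -0.23 for NF-kB subunits and targets (others -0.07 to 0.01) and 0.32 for the unfolded protein response (others -0.12 to -0.01). The cause of these differences was not tested.

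For 16 named genes that were not dim in either line the response differed between DB and K422 in the limma test of that difference, which cannot be told apart from the scan. The difference, DB minus K422, was -0.66 for FOXP1, -0.70 for LPP, -0.77 for AK055214, -0.66 for AK123506, -1.08 for THC2551927 and -1.08 for BG502322, the last 4 being transcripts next to LPP. It was 1.71 for EPB41L1, -1.03 for ZPBP2, 2.45 for DOCK4, -0.70 for NEK7 and -0.60 for AK091569. It was 1.81 for C14orf65, 1.51 for GPSM1, -1.73 for SERPINB9, -1.72 for SLC41A1 and -1.64 for TNFRSF21, which were named for the size of this difference.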

How the results depend on the processing

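The number of calls depended strongly on the background correction and on how the spread was estimated. Higher and lower calls over all genes were 402 and 250, and among genes measured in both channels 127 and 75. Calls were 91 between the siRNAs, 878 for siFOXP1 #1, 417 for siFOXP1 #2, 623 against K422, 430 against OCI-Ly3 and 26 among list members. In the same order, normexp with loess gave 49 and 31, 49 and 31, 57, 202, 124, 213, 192 and 15. Normexp with median centring gave 11 and 37, 11 and 37, 0 (469 at an unadjusted limma p under 0.05 with the fold limit kept), 8, 12, 66, 83 and 9. The DB arrays alone gave 52 and 44, 38 and 15, 2, 31, 6 and, among list members, 5. The methods' t-test after Benjamini-Hochberg adjustment gave 28 and 25, 25 and 6, then 0, 0 and 0, 214, 217 and 1. Unadjusted, with the fold limit kept, the values of 0 became 489, 512 and 411. FOXP1, at -2.00, lost its call in the t-test. For the DB mean this test takes the 6 arrays as 1 group, so the difference between the siRNAs counts as spread. The SD of FOXP1 was 0.79 over the 6 arrays, 0.33 within siFOXP1 #1 and 0.013 within siFOXP1 #2. The cause of the changes in the counts was not tested. The deposited log2 table, which is not centred, gave 489 higher and 1559 lower, 3504 and 749 for the siRNAs and 674 against OCI-Ly3. The filter for 1 channel gave 191 and 95, then 581, 274 and 236 for siFOXP1 #1, siFOXP1 #2 and OCI-Ly3. The filter for both gave 131 and 80, then 515, 219 and 212. The replicate block gave 284 higher and 188 lower, 118 and 63 among measured genes, 273 between the siRNAs (by paired differences) and 403 against K422. The slide as a random block gave 249 higher, 178 between the siRNAs and 317 against K422. A 2-fold limit gave 45 and 87, 11 and 2, 32, 233, 134, 182, 160 and 3. Requiring both siRNAs gave 61 and 63, 43 and 14, and 5 list members. siFOXP1 #1 alone gave 252 and 190 measured genes, and siFOXP1 #2 alone 217 higher over all genes and 13 list members.

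Leaving out arrays gave 356 to 517 higher and 219 to 514 lower, 118 to 240 and 61 to 249 among measured genes, 86 to 283 between the siRNAs, 872 to 1347 for siFOXP1 #1, 271 to 820 for siFOXP1 #2, 462 to 1473 against K422, 397 to 956 against OCI-Ly3, 16 to 73 list members, and FOXP1 at -2.09 to -1.92. Without replicate 3 there were 517 higher and 514 lower, 240 and 249 among measured genes, 1473 against K422 and 956 against OCI-Ly3. Without siFOXP1 #1 replicate 3 there were 398 lower, 160 against 75 among measured genes, 1085 against K422 and 659 against OCI-Ly3. Without replicate 1 there were 113 measured genes lower, and without siFOXP1 #1 replicate 1 there were 1336 for siFOXP1 #1 and 283 between the siRNAs. Over 1677 pairs of a gene and an alternative, 1291 kept direction and call, 381 lost the call and 5 reversed. The reversals were CHAC1 without replicate 2 (it ranged from -1.31 to 0.22 over the arrays left out), and HIP1R, which was at -0.046 with siFOXP1 #1 alone and ranged from -0.037 to 0.10, below 0 without replicate 2, siFOXP1 #1 replicate 3 or siFOXP1 #2 replicate 2. The replicate block ended the calls of CDKN1B and KLF9, the pairing ended the siRNA difference of APOBEC3B, and no other named calls were lost. The slide as a block ended those of P704P (limma adjusted p = 0.0574), DOCK4 (0.0715), BM807051 (0.104), NEXN (0.071), CCL3 (0.0969), CDKN1B (0.188), KLF9 (0.176), IER3 (0.11), HIST1H4D (0.0503) and HIST1H4L (0.0674), and put ITGB2 (-0.49) and HIST1H2BC (-0.49) under the fold limit.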
